A study of Mus musculus with 13 samples.

Results

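The genes described are 10 mouse genes whose products restrain SMAD signalling: Smad6, Smad7, Skil, Ski, Smurf1, Smurf2, Bambi, Pmepa1, Ldlrad4 and Tgif1. They were followed through 12 deposited peak lists from chromatin immunoprecipitation sequencing (ChIP-seq). A peak was counted for a gene when the authors' annotation named that gene as the nearest transcription start and the distance was at most 100 kb. This gave 238 peaks of 538751 in the 12 lists, spread over 8 of the 10 genes. No peak was named for Pmepa1 or Tgif1.

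The libraries came from LβT2 cells, a mouse pituitary tumour line of the gonadotrope type. Every culture, control cultures included, carried a lentiviral FLAG-tagged mouse FOXL2 that doxycycline switches on, together with constitutive GFP, and had received doxycycline for 48 h. FOXL2 is a forkhead transcription factor of gonadotropes, and the FLAG antibody reads the introduced protein, not the cells' own. After 24 h of recovery and 2 h in medium with 2% serum, cultures were exposed for 1 h to vehicle or to activin A (1 nM) and then fixed. Each sample pooled 3 plates, and SMAD2/3, FOXL2 (by its FLAG tag) and acetylated histone H3 lysine 27 (H3K27ac, found at active enhancers and promoters) had 2 vehicle and 2 activin libraries each. The same library letters recur for all 3 antibodies. A Protein-A control sample was not analysed here, and the values have no control track beside them. Nothing in the labels says that the 2 samples of a treatment came from separate cultures, so the spread between them may be technical.

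As background, activin binds receptor kinases that phosphorylate SMAD2 and SMAD3, which enter the nucleus with SMAD4 and bind chromatin beside cell type factors such as FOXL2. The pathway switches on its own brakes. SMAD7 and SMAD6 are inhibitory SMADs that block the receptors or compete for SMAD4, SMURF1 and SMURF2 are ubiquitin ligases that degrade receptors and SMADs, BAMBI is a decoy receptor, PMEPA1 and LDLRAD4 hold SMAD2/3 away from the receptor, and SKI, SKIL (also called SnoN) and TGIF1 are nuclear corepressors.

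The SMAD2/3 lists of vehicle libraries 1 and 2 were short, at 605 and 144 peaks, and those of activin libraries 1 and 2 ran to 7784 and 5970. The FOXL2 lists held 83834 to 97701 peaks and the H3K27ac lists 38995 to 41763. The number of reads behind a list is unknown, and list length mixes depth with the number of bound sites. H3K27ac lay within 1 kb of the start of 6 of 7 gonadotrope marker genes in all 4 libraries, Fshb being the exception, and of 0 of 7 marker genes of other pituitary cells in any library.

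SMAD2/3 peaks at the 10 genes were few. Vehicle libraries 1 and 2 held 1 and 0 of them and activin libraries 1 and 2 held 3 and 3, which is 0.5 ± 0.707 against 3.0 ± 0 (SD, n = 2). The groups did not overlap, and the difference on the log2(count + 1) scale was 1.5 (pooled SD 0.5, two-sided exact permutation p = 0.333, the smallest that 2 against 2 libraries can give). As a share of each library's own peaks, with 1 again added to each count, the difference turned round, to -3.03 on the log2 scale. The counts behind it were 1 of 605 and 0 of 144 peaks (vehicle) and 3 of 7784 and 3 of 5970 (activin). Without the added 1 these shares overlapped between treatments, so the size of the reversal rests on the added 1 over short vehicle lists. FOXL2 peaks at the genes numbered 33, 40, 38 and 37 in vehicle 1, vehicle 2, activin 1 and activin 2, a difference of 0.044 (pooled SD 0.136, exact permutation p = 1). H3K27ac peaks numbered 20, 22, 21 and 20, a difference of -0.032 (pooled SD 0.074, exact permutation p = 1). Both of these counts overlapped between treatments.

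**Figure D1:**
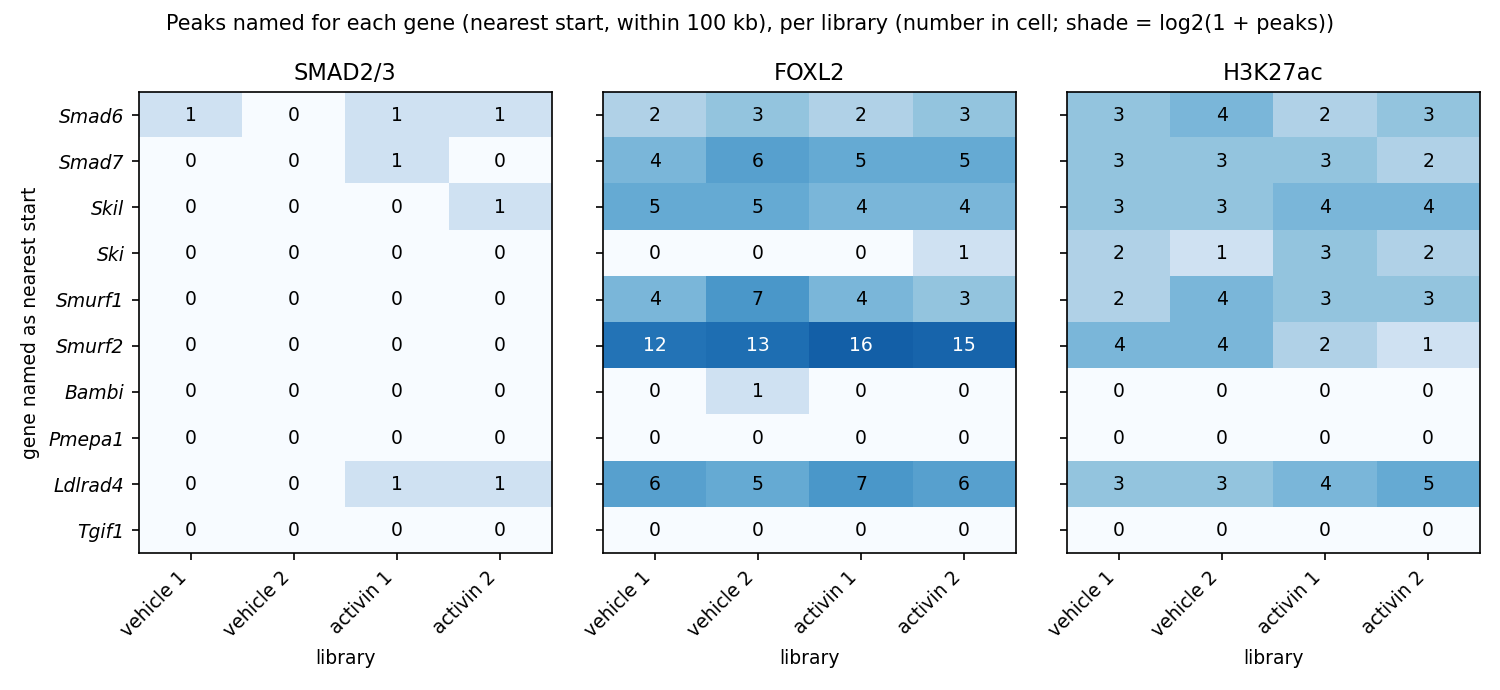
Number of peaks for which each gene (rows) is the nearest start, at most 100 kb away, in each of the 4 libraries of an antibody (columns), with darker cells for more peaks. SMAD2/3 peaks appear at Smad6, Smad7, Skil and Ldlrad4 only, Smurf2 holds 12 to 16 FOXL2 peaks per library, and the rows of Pmepa1 and Tgif1 are empty.

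Overlapping peaks (1 bp or more) from the 4 libraries of an antibody formed a region. Regions with a peak in activin 1 and 2 and in no vehicle library are called activin-only, and the reverse vehicle-only. Of the 4 SMAD2/3 regions at the genes, 1 was activin-only, where 54% of all SMAD2/3 regions were, and 0 were vehicle-only, where 0.0233% were. With lists cut to equal length these shares over all regions were 11.6% and 8.49%. None of the 4 was present in all 4 libraries, where 1.53% of all regions were. The 4 genes with a region were Ldlrad4, Smad6, Skil and Smad7, and each had 1. Fold enrichments below are the authors' own, a linear ratio whose background is not stated, and they describe a peak within its list. Differences of fold between lists were not tested.

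Ldlrad4, which encodes a membrane protein that sequesters SMAD2/3, had the strongest SMAD2/3 region. It lay 2.73 kb upstream of the start (ENSMUSG00000024544) in an intergenic stretch, at chr18:67930343-67930717 (GRCm38/mm10). Fold enrichment was 15.8 in activin 1 and 13.3 in activin 2, and neither vehicle library had a peak. Within their lists these peaks stood at the percentiles 99.4 and 99 by −log10 q, where 100 is the strongest. FOXL2 occupied the same place in all 4 libraries, with folds of 22.7 and 22.9 (vehicle) and 29.2 and 21.2 (activin), so its values overlapped between treatments. The other SMAD2/3 peak named for Ldlrad4, 138.6 kb away with a fold of 3.38 in activin 1, lay outside the distance limit and was the nearest outside it.

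Smad6, an inhibitory SMAD, was the only one of the 10 genes with a SMAD2/3 peak over its deposited start (ENSMUSG00000036867). The region covered chr9:64021941-64022186 and was classed as promoter. Fold enrichment was 6.41 in vehicle 1, 8.06 in activin 1 and 9.58 in activin 2, with no peak in vehicle 2, so the region is not activin-only by the rule above. FOXL2 lay there in every library, with folds of 6.39 and 5.57 (vehicle) and 4.35 and 5.03 (activin), both activin values below both vehicle values. H3K27ac covered the start and part of the first intron at chr9:64016675-64022988, with folds of 4.37, 4.27, 4.67 and 5.02 in vehicle 1, vehicle 2, activin 1 and activin 2.

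The Smad6 promoter is printed because the SMAD2/3 and FOXL2 summits fall about the end of the printed stretch, which was cut after the palindrome. The SMAD2/3 summits and the FOXL2 summit of vehicle 1 lay past its last base, and the other FOXL2 summits lay inside it. The sequence is RefSeq's for GRCm38.p6, read 5′ to 3′ on the minus strand, chr9:64022056-64022309, and capitals mark an 8-base palindrome made of a pair of SMAD boxes, GTCTAGAC.
Smad6 promoter: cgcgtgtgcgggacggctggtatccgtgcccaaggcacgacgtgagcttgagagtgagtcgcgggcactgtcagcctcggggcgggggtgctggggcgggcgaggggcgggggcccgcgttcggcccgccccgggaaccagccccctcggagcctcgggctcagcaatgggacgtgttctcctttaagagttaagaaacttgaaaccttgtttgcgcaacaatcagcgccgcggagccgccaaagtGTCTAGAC
The SMAD2/3 summits lay 10, 16 and 30 bp from the centre of the capitals in activin 1, vehicle 1 and activin 2, and the FOXL2 summits lay 8 to 32 bp from it. Of 32851 promoters of the same 300-base span in the RefSeq table, 70 (0.213%) hold GTCTAGAC, a motif searched for only after this sequence had been seen. The 300-base Smad6 window, which runs on past the printed stretch, holds 2 copies of the GC-rich SMAD motif GGCGC on either strand, which 36.9% of promoters hold, and no CAGAC (49.6%) and no forkhead core TAAACA (13.4%). A match of letters is a description and not a measured binding site.

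Promoter sequences were in the table for 5 of the 10 genes: Smad6, Ski, Smurf1, Smurf2 and Tgif1. Entries for Smad7, Skil, Bambi, Pmepa1 and Ldlrad4 were not matched. The windows below are shown because they hold the SMAD box CAGAC, or GTCTG on the other strand (in capitals), in promoters that had no SMAD2/3 peak within 1 kb of the start in any library. They are not all such copies. Smurf2 holds another 28 bases past its start. Of the 5 Tgif1 promoters, numbers 2 and 4 hold copies too, and numbers 3 and 5 hold none.
Smurf1, chr5:144966009-144966031, minus strand: cacggtggtGTCTGtttcaaggc
Smurf1, chr5:144965962-144965984, minus strand: cagctccccCAGACccccttgcg
Smurf2, chr11:106920905-106920927, minus strand: cggggcccaGTCTGggccgtggc
Tgif1, chr17:70853720-70853742, minus strand: tccgccgcgCAGACagcggatag
The Ski promoter holds no CAGAC and 7 copies of GGCGC, and it too had no SMAD2/3 peak within 1 kb.

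Skil, a corepressor gene, had a SMAD2/3 peak in activin 2 alone, 23.0 kb upstream (chr3:31071884-31072161, intergenic), with a fold of 6.07. FOXL2 lay there in all 4 libraries with folds of 3.35, 5.42, 3.44 and 4.55 in vehicle 1, vehicle 2, activin 1 and activin 2. The SMAD2/3 region named for Smad7 lay 50.5 kb downstream (chr18:75419371-75419587), was present in activin 1 alone and had a fold of 2.45, at the percentile 1.65 of its list. It was also the farthest SMAD2/3 peak inside the distance limit. For FOXL2 the farthest inside was at Smad6 (73.9 kb, fold 13.5) and the nearest outside at Ldlrad4 (115.7 kb, fold 3.62), and for H3K27ac they were at Smad6 (80.3 kb, fold 3.56) and Ldlrad4 (125.9 kb, fold 3.18).

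The nearest-start rule hid a promoter peak of Smad7, an inhibitory SMAD gene known as a target of the pathway it blocks. A SMAD2/3 region at chr18:75366788-75367257 was named for the neighbouring start Gm20544, while the same annotation classed it as the promoter of Smad7's own identifier, ENSMUSG00000025880. It ended 108 bp before the 5′ end of the RefSeq gene, and the deposited start of Smad7 lies 1.62 kb further inside. Fold enrichment was 5.41 in vehicle 1, 3.76 in vehicle 2, 10.1 in activin 1 and 11.7 in activin 2, so a peak was present without added activin. Within each whole list its percentiles by −log10 q were 86, 45.1, 95.4 and 96.9 in the same order, higher in both activin libraries. Among only the 132 SMAD2/3 regions found in all 4 libraries they were 47.7, 42.4, 16.7 and 34.1, lower in both activin libraries. The direction in rank thus depended on the set of regions ranked. FOXL2 lay on it in all 4 libraries, with folds of 5.7, 5.73, 4.45 and 7.47.

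When every region within 100 kb of a start was taken, whatever the nearest gene, the 10 genes had 13 SMAD2/3 regions, of which 6 were activin-only, where 54% of all SMAD2/3 regions were, and 9 were present in both activin libraries, where 60% of all were. Smad7 had 3 regions beyond the one named for it. The region in an intron 77.2 kb upstream (nearest start 2010010A06Rik) had folds of 8.98 and 9.34 in the activin libraries, and that 96.1 kb downstream (nearest start Gm10532) had 5.26 and 5.28, both without a vehicle peak. Ski, whose product is a nuclear corepressor, had 5 regions between 56.8 and 81.9 kb downstream, past the end of the gene and inside introns of Morn1, which is their nearest gene. These distances run from the deposited start of Ski, 34.24 kb inside the RefSeq gene. From the RefSeq 5′ end some of the 5, including the strongest, lie beyond 100 kb. The strongest, at chr4:155106174-155106656, had folds of 5.31 in vehicle 1, 14.9 in activin 1 and 13.6 in activin 2, with no peak in vehicle 2. Those 70.3 and 62.7 kb downstream were activin-only, with folds of 6.88 and 8.75 and of 3.53 and 3.88. Tgif1 had 1 activin-only region 70.0 kb downstream (nearest start 5031415H12Rik), with folds of 4.63 and 4.77. Smurf1, Smurf2, Bambi and Pmepa1 had no SMAD2/3 region within 100 kb in any library. For Smurf1 this was counted from the deposited start, 67.91 kb inside the RefSeq gene. Upstream of its RefSeq 5′ end, less than 100 kb was therefore searched. Peak lists do not show which gene a distant region acts on.

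**Figure D2:**
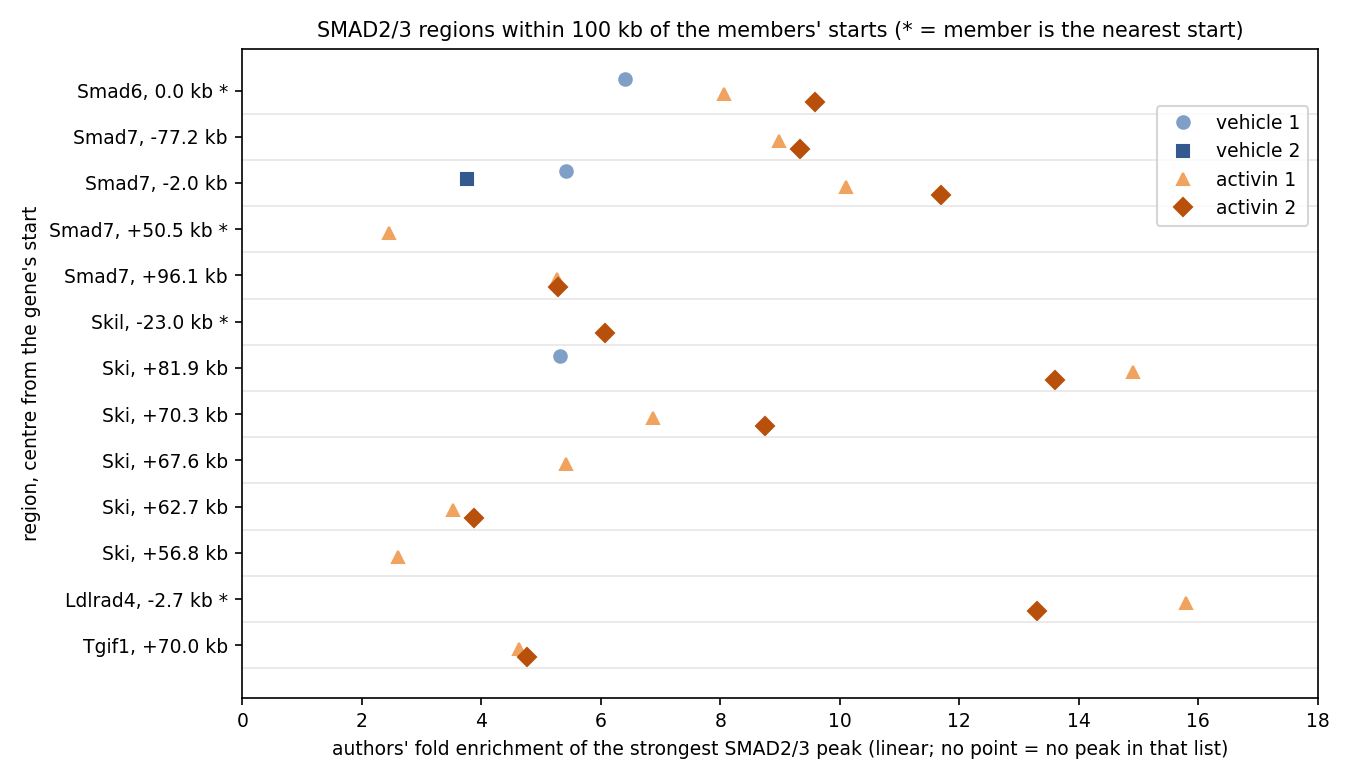
Authors' fold enrichment (linear axis) of the strongest SMAD2/3 peak in each library, for the 13 regions within 100 kb of the genes' starts; a missing symbol means no peak in that list, and a star marks the 4 regions for which the gene is the nearest start. The highest values are at Ldlrad4 (15.8 and 13.3) and in the Morn1 introns beyond Ski (14.9 and 13.6), and vehicle symbols appear at 3 regions.

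Both SMAD2/3 regions named for the genes and present in both activin libraries, those of Ldlrad4 and Smad6, carried FOXL2 and H3K27ac. The wider window, chosen for this count after seeing the data, gave 9 regions in both activin libraries, of which 8 carried FOXL2 in both activin libraries (88.9%, 95% Wilson interval 56.5 to 98%), against 82% of all 5162 such SMAD2/3 regions. H3K27ac covered 8 of the 9, against 76.7% of all. The region without FOXL2 was the one 62.7 kb beyond Ski, and the region without H3K27ac was that of Tgif1. At the regions 77.2 kb upstream of Smad7 and 70.3 kb downstream of Ski the FOXL2 peak too was activin-only, with folds of 6.27 and 5.61 and of 7.63 and 6.52. These intervals cover counting error only, and regions of 1 locus are not independent.

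**Figure D3:**
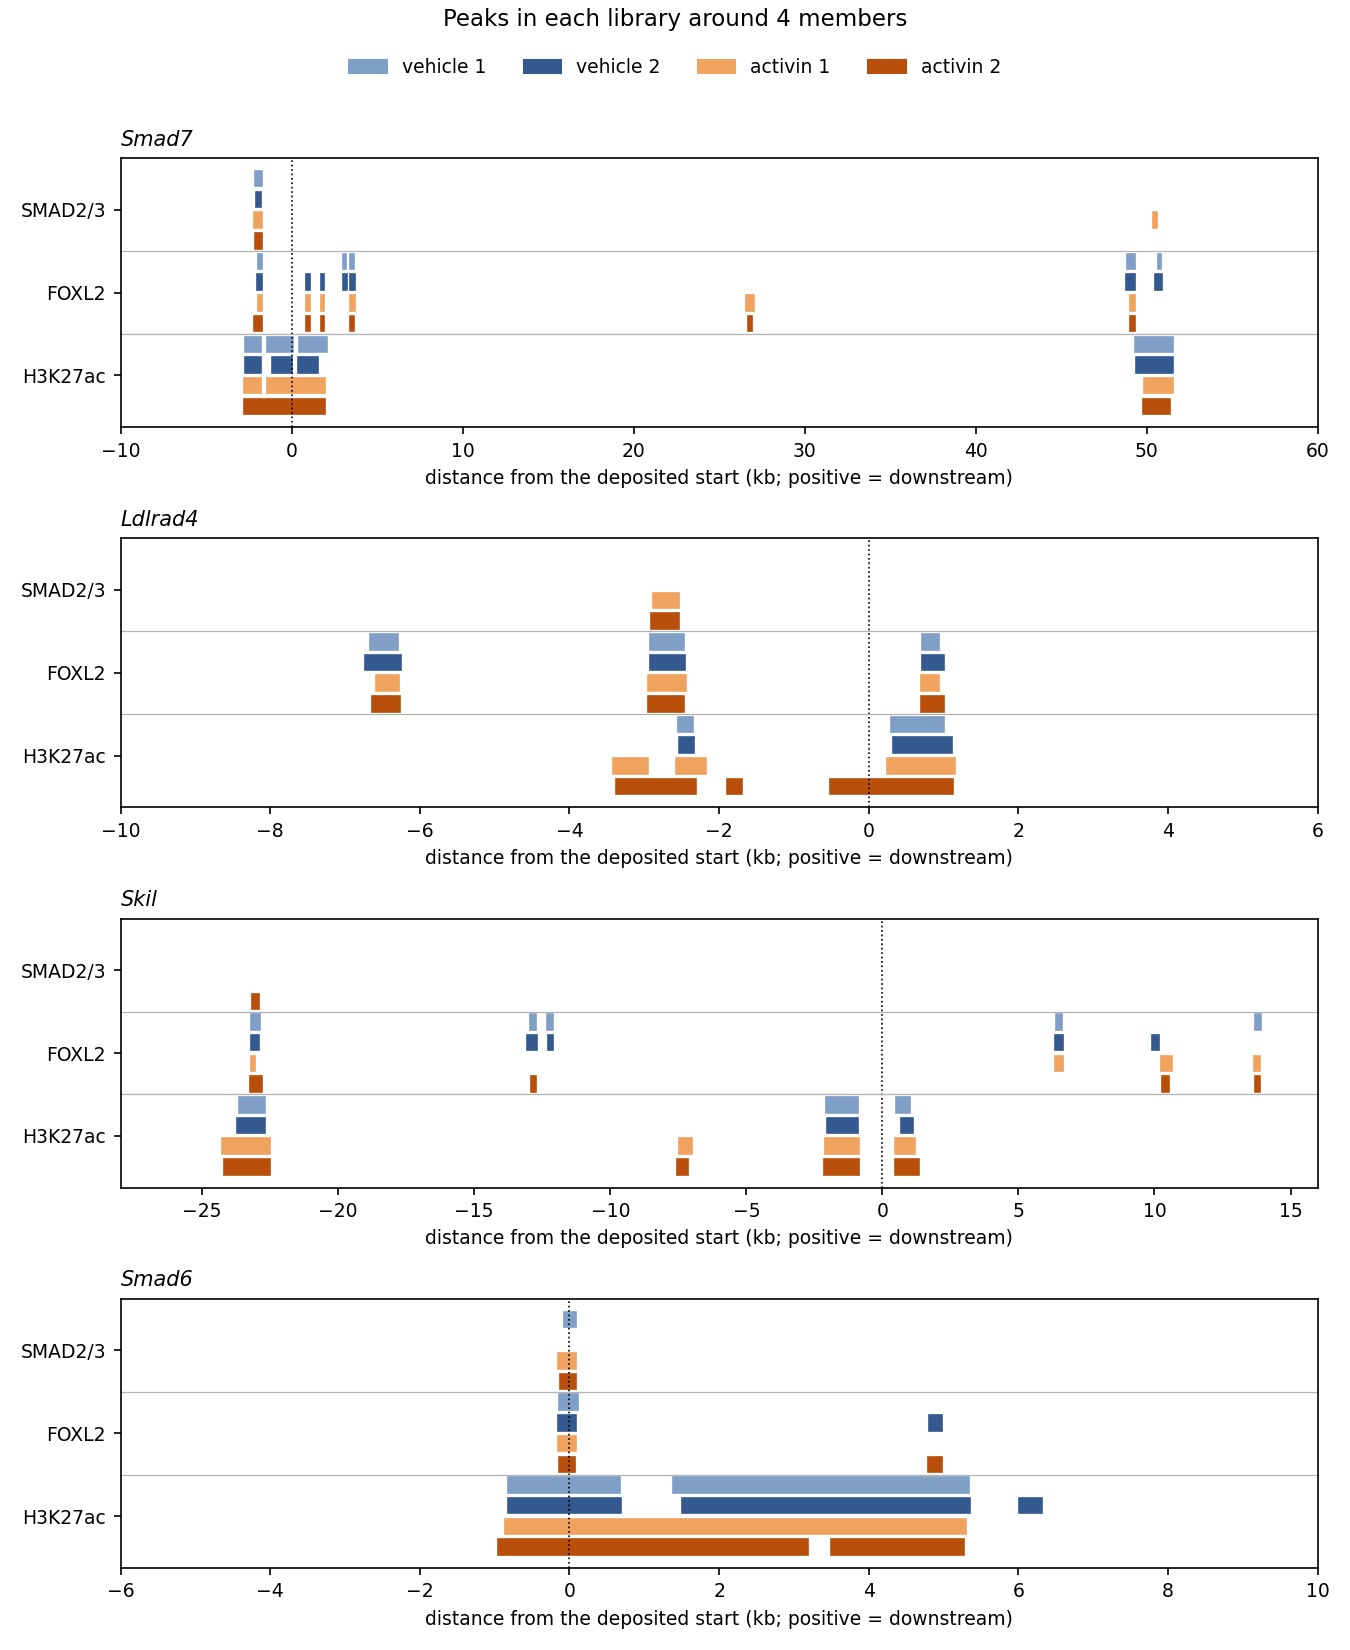
Peaks of each library (bars, 1 row per library within an antibody) against distance from the deposited start in kb, for Smad7, Ldlrad4, Skil and Smad6, each panel with its own range. SMAD2/3 bars sit 2.73 kb upstream of Ldlrad4 in the activin rows alone, and about the promoters of Smad7 and Smad6 in vehicle rows as well.

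H3K27ac at the genes was compared by rank, since ranks within a common set of regions have the same length in every library. Each of the 24356 H3K27ac regions present in all 4 libraries got a percentile by −log10 q in each library, and a region was called higher with activin when both activin percentiles exceeded both vehicle percentiles. Of the 13 such regions at the genes, 8 were higher with activin, where 27.9% of all regions were, and 1 was higher with vehicle, where 30.4% were. The 8 belonged to Skil (3), Ldlrad4 (2), Ski, Smurf1 and Smurf2. By rank within each whole list, 7 of the 13 were higher with activin (26.4% of all regions) and 1 with vehicle (31.2%). By that rank the regions of Smurf1 and Smurf2 overlapped between treatments. Among all 36 common regions within 100 kb of the starts, 19 were higher with activin and 4 with vehicle. Several of these regions share a locus, so they are not independent of each other.

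The largest shift was at Skil. The region beside its start, 0.9 kb downstream (chr3:31095526-31096397), stood at the percentiles 5.87 and 0.719 in the vehicle libraries and reached 58.1 and 72.6 with activin, a difference of 62.0 points (pooled SD 7.7, n = 2). Its folds were 3.21, 2.50, 5.23 and 6.09 in vehicle 1, vehicle 2, activin 1 and activin 2. Both activin libraries lay far above both vehicle libraries. The region 1.5 kb upstream (chr3:31092911-31094191) was already high, at 82.8 and 91.3, and stood at 96.9 and 96.2 with activin. The region 23.4 kb upstream, which holds the SMAD2/3 and FOXL2 peaks given above, moved from 40.1 and 55.8 to 74.4 and 78.2, a difference of 28.3 points (pooled SD 8.1). Skil also had the 1 activin-only H3K27ac region of the 27 at the genes, 7.28 kb upstream with folds of 2.95 and 2.94, where 5.84% of all H3K27ac regions were activin-only.

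At Ldlrad4 both regions near the start stood higher with activin. The region in its first intron, 0.32 kb downstream (chr18:67932742-67934408), was at 23.8 and 21.6 in the vehicle libraries and at 79.6 and 81.1 after activin, a difference of 57.6 points (pooled SD 1.3, n = 2). Its folds were 3.63, 3.26, 5.99 and 5.94. The region 2.8 kb upstream, over the SMAD2/3 site, was at 15.2 and 13.6 in the vehicle libraries and at 71.8 and 53.4 after activin (48.2 points, pooled SD 9.2). The activin-library peaks of this region reached to both sides of the SMAD2/3 site, whereas the vehicle peaks lay at its downstream edge. The remaining region, 56.9 kb upstream in an intron of another gene, overlapped between treatments at 75.4, 76.3, 83.1 and 76.1.

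Smad7, the inhibitory SMAD, differed between its regions. The wide region over its promoter (chr18:75366204-75371054) was at the top of every library, with percentiles of 98.6 and 99.2 (vehicle) and 100 and 98.7 (activin) and folds of 7.61, 7.81, 11.7 and 8.29. The region 50.4 kb downstream (chr18:75418280-75420555) was the 1 region of the 13 higher with vehicle, at 85 and 86.4 against 61.1 and 53.9, a difference of -28.2 points (pooled SD 3.7). FOXL2 was also lower there with activin: the region 49.1 kb downstream was at 78.3 and 84.3 with vehicle, then 53.9 and 64.7, and the one 50.7 kb downstream was vehicle-only. The weak SMAD2/3 peak of activin 1 lies in the same place.

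The Ski region 10.1 kb downstream moved from 6.83 and 16.1 to 21.9 and 44.1, a difference of 21.5 points (pooled SD 12). The Smurf1 region, 48.0 kb upstream of its deposited start but in an intron of the gene, differed by 6.4 points (pooled SD 3.7). Within each whole list its percentiles overlapped, at 37 and 44.2 (vehicle) and 49.2 and 43.6 (activin). The Smurf2 region, 0.42 kb downstream, differed by 6.3 points (pooled SD 4.1), and its folds were 4, 3.7, 4.19 and 3.85. Its whole-list percentiles overlapped too, at 45.4 and 44.8 (vehicle) and 56.1 and 43 (activin). Named H3K27ac peaks of Smurf2 numbered 4, 4, 2 and 1 in vehicle 1, vehicle 2, activin 1 and activin 2, fewer in both activin libraries. Its region 42.1 kb downstream had folds of 3.54, 3.21 and 2.49 in the first 3 of these and no peak in activin 2. Smurf2 also had the 1 vehicle-only H3K27ac region, 34.0 kb downstream with folds of 3.06 and 3.03, where 6.79% of all regions were vehicle-only. The percentiles of both common Smad6 regions, 2.2 and 80.1 kb downstream, overlapped between treatments, while the folds of the first were higher in both activin libraries.

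**Figure D4:**
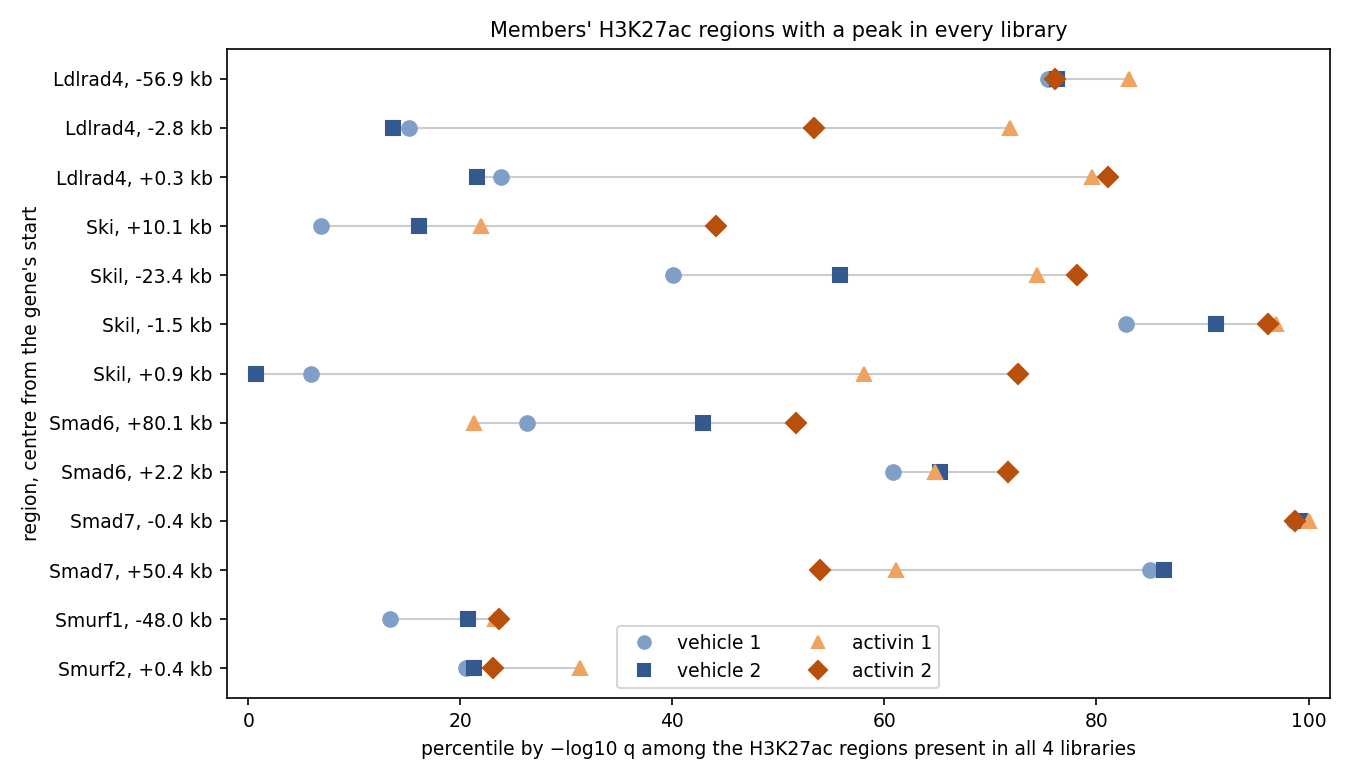
Percentile by −log10 q of the 13 H3K27ac regions present in every library, among all regions present in every library (x axis), with 1 symbol per library and a grey line over the range. Skil 0.9 kb downstream and both Ldlrad4 regions near the start show the widest gaps between the vehicle and activin symbols, and Smad7 50.4 kb downstream shows the opposite order.

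The deposited starts of Ski and Smurf1 lie far inside the gene, 34.24 and 67.91 kb from the RefSeq 5′ end, where those of Smad7, Ldlrad4, Bambi and Smurf2 lie 0.39 to 1.62 kb inside, so the promoters of Ski and Smurf1 were looked up from RefSeq. H3K27ac lay within 1 kb of the Ski 5′ end with folds of 7.08, 7.57, 6.07 and 7.79, and of the Smurf1 5′ end with folds of 5.72, 4.15, 5.36 and 4.57, overlapping between treatments in both. Neither had FOXL2 there. Tgif1 had no H3K27ac within 1 kb of any of its 5 RefSeq starts in any library, while FOXL2 lay within 1 kb of some of those starts in all 4 libraries, with folds of 4.28, 3.25, 3.64 and 4.39. Bambi had no H3K27ac region within 100 kb, and its 1 named peak was FOXL2 in vehicle 2, 3.51 kb upstream with a fold of 2.6. Pmepa1 had no region of any antibody within 100 kb of either gene end. With the depth unknown, a missing peak says only that none was called.

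H3K27ac near Ski was also read beyond the nearest-start rule, over the SMAD2/3 regions in Morn1. The regions over the SMAD2/3 sites 81.9, 70.3 and 62.7 kb downstream all stood higher with activin. That at 70.5 kb moved from 1.84 and 4.07 to 43.3 and 28.8, and that at 81.8 kb from 30.8 and 25.8 to 46.5 and 51.1. The region 56.9 kb downstream, where SMAD2/3 had a peak in activin 1 alone, stood lower, from 91.3 and 89.3 to 84.9 and 74.2. At 67.8 kb, over the other SMAD2/3 site of activin 1 alone, H3K27ac stood higher, from 0.558 and 1.81 to 23.9 and 29.6. Within 100 kb of the starts of all 10 genes, 8 common H3K27ac regions lay on a SMAD2/3 region of both activin libraries. Of these, 6 were higher with activin and 0 with vehicle. Of all 2868 such H3K27ac regions in the genome, 65% were higher with activin and 16.6% with vehicle. The share in this window was near that of SMAD2/3-bound acetylated regions in general. Among the regions named for the genes, only 3 lay on such a SMAD2/3 region. They were Ldlrad4 2.8 kb upstream, higher with activin, and the promoter regions of Smad6 and Smad7, whose percentiles overlapped between treatments. The folds of both promoter regions were higher in both activin libraries. They were 4.37 and 4.27 (vehicle) and 4.67 and 5.02 (activin) at Smad6, and 7.61 and 7.81 against 11.7 and 8.29 at Smad7. The other named regions higher with activin are not covered by the comparison with SMAD2/3-bound regions.

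FOXL2 at the genes comprised 52 regions, of which 24 (46.2%) were present in all 4 libraries, where 46.8% of all FOXL2 regions were. There were 5 activin-only regions (8.95% of all FOXL2 regions were) and 3 vehicle-only regions (3.22% of all were). Of the 24 common regions, 5 were ranked higher with activin (26.1% of all were) and 9 with vehicle (33.1% of all were), and within the wider window of 100 kb the order was the opposite, at 16 and 12 of 51. These counts stood near the background.

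The FOXL2 regions were unevenly spread. Smurf2 had 17, of which 11 were in all 4 libraries, Smurf1 and Ldlrad4 had 8 each, Smad7 and Skil 7 each, Smad6 3, and Ski and Bambi 1 each. All 17 of Smurf2 lay in its introns, 5.31 to 48.87 kb downstream of the start, and the strongest by fold, 42.7 kb downstream, had folds of 17.7, 11, 16.8 and 16.7. The 3 activin-only regions of Smurf2 lay 45.9, 7.86 and 5.31 kb downstream, with folds of 6.37 and 4.92, of 4.82 and 5.59, and of 5.2 and 5.97 in activin 1 and 2. Smad7 had an activin-only region at the end of the gene, 26.8 kb downstream (chr18:75395563-75396009), with folds of 9.87 and 7.54, the highest of the 5, and Skil had the fifth in an intron, 10.45 kb downstream, with 3.64 and 3.76. The vehicle-only regions were 12.21 kb upstream of Skil and 3.13 and 50.69 kb downstream of Smad7, with folds of 5.28 and 5.21, of 3.2 and 5.75, and of 2.27 and 2.46 in vehicle 1 and 2. Among the common FOXL2 regions at the genes, the intronic Smurf1 region 12.63 kb upstream of its deposited start moved most with activin, from 6.23 and 15.9 to 42.7 and 49.5, and the Smurf2 region 5.83 kb downstream moved most with vehicle, at 53 and 42.2 against 0.367 and 19.2.

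**Figure D5:**
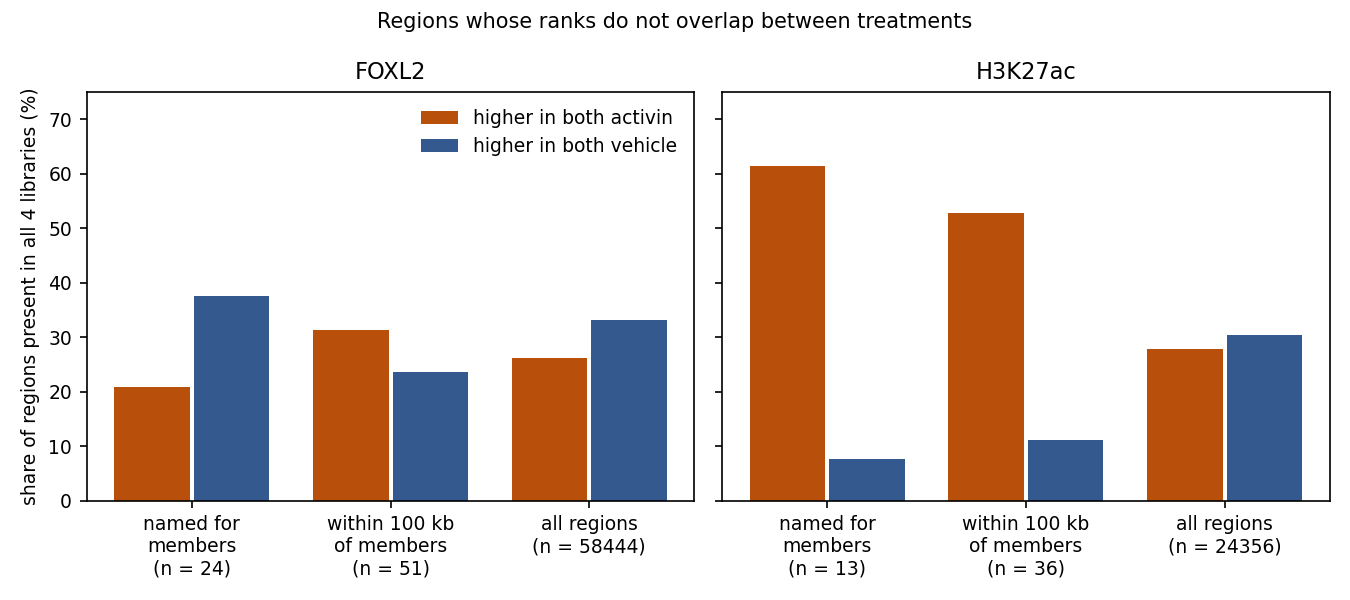
Share of regions present in all 4 libraries (y axis, %) whose percentiles were higher in both activin libraries (orange) or both vehicle libraries (blue), for regions named for the 10 genes, regions within 100 kb of them and all regions. For H3K27ac the orange bar of the named regions is 61.5% against 27.9% over all regions, while the FOXL2 bars change order between the first and the second set.

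The rest of the pathway was taken as 49 other genes for ligands, receptors, SMADs and their regulators, of which 41 had a region named for them. Among these 41, 9 genes had 10 activin-only SMAD2/3 regions and 0 had a vehicle-only one. Of the 8 inhibitor genes with a named region, 1 had an activin-only SMAD2/3 region, as did 10.7% of all 28143 genes with a named region. The nearest-start rule gave activin-only regions near Smad7, Ski and Tgif1 to other genes. In the rest of the pathway Inhbb, which encodes the βB subunit of activin B, had 2 activin-only SMAD2/3 regions. Gdf9, Tgfbr3, Bmpr1a, Bmpr1b, Smad2, Smad3, Zfyve9 and Wwp1 had 1 each. For H3K27ac, 4 of the 41 pathway genes had an activin-only region and 4 a vehicle-only region (7.78% and 8.45% of all named genes). Of their 52 common regions 23 were higher with activin and 12 with vehicle (27.9% and 30.4% of all common regions). Of the 23, 5 were at Inhbb, which had 6 common regions.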

How the data were processed

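The series measured SMAD2/3, FLAG-tagged FOXL2 and H3K27ac by ChIP-seq in 2 vehicle and 2 activin samples each, with single-end reads. The submitters' processing notes name Bowtie2, MACS2, HOMER and the builds GRCm38 and mm10, without versions. Peaks were called per library, per the file headers and peak names in the deposited lists. The deposited fold is a ratio on a linear scale with its background not stated, and the −log10 of p and q and the score are the authors' as deposited. The smallest deposited −log10 q was 1.3 to 1.78 for SMAD2/3 and FOXL2 and 1 to 1.01 for H3K27ac. HOMER's tables gave each peak its nearest start and distance, per the file headers, and a gene's start was derived from peak centres and those distances.

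Peaks of 4 libraries were joined at 1 bp of overlap, called by presence, and ranked by −log10 q within the regions common to all 4 libraries. Numbers of peaks were compared on the log2(count + 1) scale with an exact permutation test over 6 labellings. The pseudocount of 1 was needed because 1 library had no peak at these genes. Region calls and ranks carry no p-value, and the share over all regions stands beside the first count of each kind. The code was tested on simulated data, with Python 3.11.15, pandas 2.3.3 and scipy 1.17.1. The 10 genes, the lists of pathway and marker genes and the rules were chosen with earlier results of these data known. Values per library were given for promoters with a peak, for the strongest SMAD2/3 regions and for treatment-only regions named for the genes, and other regions were singled out after their values were seen. RefSeq tables of GRCm38.p6 gave gene ends and promoter sequences. Same-numbered libraries were not treated as pairs. Sequences on chromosome 18 are not reported here. Alternatives covered a −log10 q of at least 5, a 50% overlap, a 50 kb limit and lists of equal length. They also covered rank by fold, rank within the whole list and leaving out each library.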

Additional observations from a re-analysis of the deposited data

How the results depend on the processing

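Of 200 alternative values computed for 28 results, 152 were rated the same, 38 moved beyond a tolerance and 10 reversed. The tolerance was 1.5 times for a count, 1 SD between replicates for a percentile difference and the 95% interval for a share. For a log2 difference in peaks only the direction was judged, not the size. Counts at the genes were judged without regard to the share over all regions. Any region within 100 kb of a start, in place of the nearest-start rule, gave 13 SMAD2/3, 114 FOXL2 and 74 H3K27ac regions. Of these, 6 (SMAD2/3), 17 (FOXL2) and 7 (H3K27ac) were activin-only, and 5 (FOXL2) and 2 (H3K27ac) were vehicle-only. The shares over all regions are those in the report. Of the 17 FOXL2 regions, 7 lay near Skil. On the same wider window, an alternative chosen after seeing the data for the ranks, 16 FOXL2 regions were higher with activin, and 19 H3K27ac regions were higher with activin and 4 with vehicle. With a −log10 q of 5 or more, FOXL2 had 1 vehicle-only region (1.82% of all regions) and H3K27ac had 0 activin-only and 0 vehicle-only regions (0.289% and 0.3%). With that threshold the log2 difference in peaks turned to -0.04 for FOXL2 and to 0.352 for H3K27ac (exact permutation p = 0.333). Lists of equal length gave 2 vehicle-only H3K27ac regions (6.92% of all), and a 50 kb limit left 0 H3K27ac regions higher with vehicle. For SMAD2/3, lists of equal length kept 1 activin-only and 0 vehicle-only regions at the genes. The shares over all SMAD2/3 regions went from 54% to 11.6% and from 0.0233% to 8.49%, so they depend on list length. As a share of a library's peaks, with 1 added to each count, the log2 difference turned to -3.03 for SMAD2/3 (exact permutation p = 0.333) and to -0.127 for FOXL2. For SMAD2/3 the shares overlapped between treatments without the added 1. Rank within the whole list made several H3K27ac percentile differences smaller, beyond the tolerance. They were 40.9 and 38.7 points at Ldlrad4 (0.3 kb downstream and 2.8 kb upstream), 18.2 at Skil 23.4 kb upstream and -18.4 at Smad7 50.4 kb downstream. The other H3K27ac regions stayed within the tolerance, and no direction turned. The cause of these changes was not tested.

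Leaving out 1 library at a time gave 1 to 2 SMAD2/3, 6 to 8 FOXL2 and 1 to 4 H3K27ac activin-only regions, while the shares over all regions ran from 54.1 to 84%, 11.5 to 16.6% and 7.08 to 15.5%. Vehicle-only regions ran from 4 to 9 for FOXL2 (9 without vehicle replicate 1) and from 1 to 3 for H3K27ac, with 5.49 to 8.98% and 8.02 to 14.3% over all regions. FOXL2 regions higher with activin ran from 6 to 10 (33.5 to 38% over all common regions) and with vehicle from 9 to 14 (41.8 to 47.1%). H3K27ac regions higher with activin ran from 8 to 11 (37 to 40%) and with vehicle from 1 to 2 (39.7 to 42%). The log2 difference in peaks ran from 1 to 2 for SMAD2/3, from -0.091 to 0.179 for FOXL2 and from -0.098 to 0.034 for H3K27ac (0.001 without activin replicate 2). For single H3K27ac regions the direction turned at the Smad7 promoter (-0.2 to 1.1 percentile points, -0.2 without activin replicate 1) and 80.1 kb downstream of Smad6 (-13.3 to 17.1, -6.4 without vehicle replicate 1 and -13.3 without activin replicate 2), and at the other 11 regions it held under each library left out.

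With the replicate number as a block the log2 differences were 1.5 (p = 0.5, exact permutation within pairs), 0.044 and -0.032 for SMAD2/3, FOXL2 and H3K27ac. Same-numbered libraries share only a number: the correlation of their deviations was -0.013, 0.164 and -0.039, and the block changed no call. Leaving out a library leaves a treatment with 1 library, judged by it alone. Depth per library is unknown, so an absent peak cannot be told from a peak missed for want of reads.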

Other observations

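Some regions near the genes carry another gene's name in the deposited annotation and were counted above only within 100 kb, without a description of each. The regions here were picked after their values were seen, and no test was made. Upstream of Smad6 by 28.24 kb, in an intron of 1110036E04Rik (chr9:64048871-64051665), H3K27ac stood at the percentiles 91.1 and 89.1 with vehicle and at 98.7 and 98.9 in the activin libraries. Upstream of Smad7, a region 70.51 kb away (chr18:75297506-75299446) stood at 3.16 and 1.89 with vehicle and at 40.2 and 33.8 in the activin libraries. The region 77.28 kb away, over an activin-only SMAD2/3 site, went from 2.15 and 16.7 to 28.7 and 38.9.

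Tgif1, a corepressor gene with no peak named for it, had 8 FOXL2 regions within 100 kb, of which 6 were in all 4 libraries. The one 38.65 kb downstream (chr17:70814639-70815126) had folds of 12.6 and 8.46 in the vehicle libraries and reached 19.7 and 18.5 after activin. No H3K27ac region near Tgif1 was present in all 4 libraries: of its 2 regions, 1 was activin-only, 98.02 kb downstream, with folds of 3 and 2.79.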
